A study of Homo sapiens with 44 samples.

Results

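The Hippo pathway genes YAP1, WWTR1, TEAD1, TEAD2, TEAD3, TEAD4, LATS1, LATS2, AMOTL2 and ANKRD1 were followed through the differentiation of human embryonic stem cells into heart muscle cells. The 10 genes were picked by name, and all 10 were found among the 60499 gene identifiers counted. All 10 were among the 22955 genes kept by the filter on low counts. The cells were H1, a long-established embryonic line with no genetic change named in the labels, so all groups come from a single line. Total RNA was sequenced from 44 wells in 12 groups. Pluripotent cells were kept on the laminin LN-521 (3 wells), and day 0 wells were cultures on LN-521 and LN-221 in Nutristem medium, taken when confluent (3 wells). At day 0 the wells received CHIR99021, which inhibits GSK3 and thereby switches on Wnt signalling, and wells were taken at days 1 and 3 (3 each). IWP2, which blocks the production of Wnt proteins, was added at day 3, and 5 wells each were taken at days 5, 7 and 9. All medium from day 1 to day 9 was RPMI with a B27 supplement free of insulin. From then on the wells had CTS grade supplement and were taken at day 11 (5 wells) and at days 14, 20, 30 and 90 (3 wells each).

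In the Hippo pathway the kinases LATS1 and LATS2 phosphorylate the coactivators YAP (from YAP1) and TAZ (from WWTR1) and keep them out of the nucleus. Unphosphorylated YAP and TAZ bind the TEAD factors, which contact DNA, and switch on genes for growth and for the response to mechanical load. AMOTL2 encodes a motin protein that binds and restrains YAP, and its gene is also a target of YAP and TAZ. ANKRD1 encodes a stretch-responsive repeat protein of the heart muscle sarcomere and nucleus and is widely used as a YAP target. RNA levels, measured here, say nothing of where the YAP and TAZ proteins were in the cell.

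TEAD proteins bind DNA at the hexamer GGAATG, also called the muscle CAT motif, whose reverse complement is CATTCC. The windows from 250 bases before to 50 bases after the transcription starts listed by RefSeq (GRCh38.p14) were searched for these letters on both strands. The table of windows held 8 of the 10 genes with 12 windows, and not TEAD1 and TEAD4. AMOTL2, ANKRD1, YAP1 and LATS2 had a match, in 4 of the 12 windows, beside 14.0% of all 35116 windows. The 5 matches are shown as the places where these letters occur in the windows of the 10 genes. Each is printed 5′ to 3′ on the strand of its gene as 30 bases, with the motif in capitals.
AMOTL2: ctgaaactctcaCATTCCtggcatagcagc
ANKRD1 distal: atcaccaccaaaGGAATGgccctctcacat
ANKRD1 proximal: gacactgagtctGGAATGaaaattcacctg
YAP1: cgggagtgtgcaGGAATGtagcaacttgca
LATS2: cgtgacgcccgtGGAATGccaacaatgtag
The AMOTL2 stretch lies at chr3:134374499-134374528 on the minus strand, with the motif starting 69 bases before one of the RefSeq starts and inside an exon of an AMOTL2 transcript in GENCODE 29. The ANKRD1 stretches lie on the minus strand at chr10:90921290-90921319 and chr10:90921198-90921227, with motifs starting 220 and 128 bases before the RefSeq start. The distal one is upstream of the GENCODE gene and the proximal one is inside its first exon. The YAP1 stretch, at chr11:102110273-102110302 on the plus strand, has its motif starting 162 bases before the start, upstream of YAP1 and inside an exon of a long non-coding RNA gene of the opposite strand. The LATS2 stretch, at chr13:21061560-21061589 on the minus strand, has its motif starting at base 10 after the RefSeq start, beyond the start that GENCODE gives. A match of 6 letters is a description of the sequence and not a measured binding site.

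Libraries held between 6937136 and 33498022 estimated counts, and no pair of libraries agreed within sampling noise. The markers followed the labels. The sum of 4 pluripotency markers was between 4724 and 4977 CPM (counts scaled by library size) in the pluripotent wells and between 8.83 and 14.9 CPM at day 90. The sum of 5 cardiomyocyte markers went from between 30.7 and 71.9 CPM to between 14870 and 50490 CPM. The spread between wells of 1 day grew with time, from a biological coefficient of variation of 7.90% at day 0 to 57.6% at day 30. Wells taken from 1 line and protocol were the replicates, so the tests measure the spread between wells. Because whole wells were sequenced, fewer cells of a type cannot be told apart from less RNA per cell.

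Levels of 1 gene over time are given in CPM scaled between libraries, and a gene is said to have risen or fallen where edgeR's quasi-likelihood test gave it an adjusted p under 0.05, with the adjustment over all 22955 genes. Changes are log2 fold changes with a standard error worked back from the statistic of that test. TPM, which divides by transcript length, is used to compare genes within a library. Between libraries it serves only as an alternative scale, on which some calls differ. The comparisons share groups, so they are not independent of each other.

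**Figure D1:**
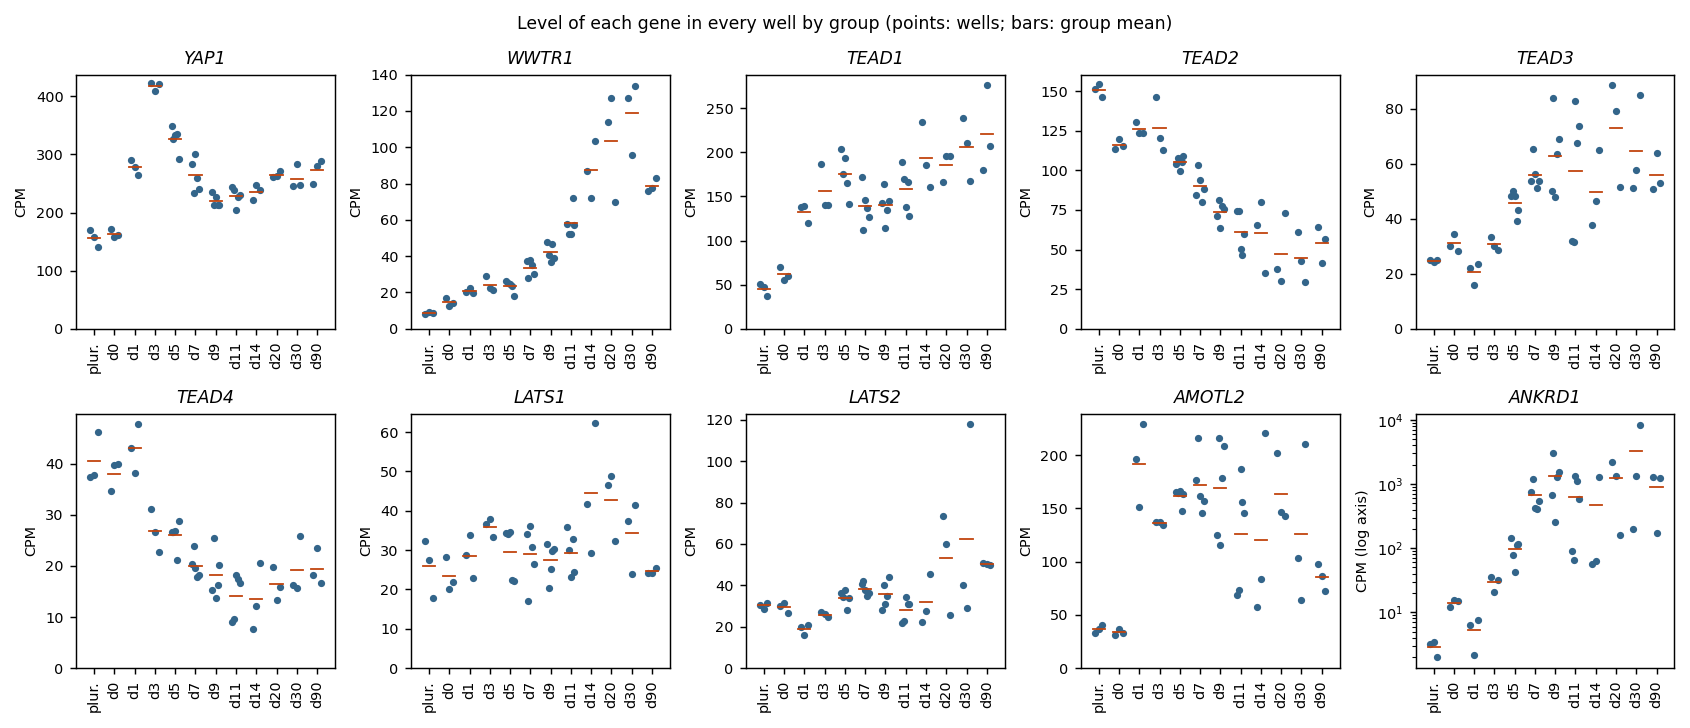
Scaled CPM (vertical axes, linear except for the log axis of ANKRD1) of the 10 genes in each of the 44 wells by group (horizontal axes), with bars at the group means. YAP1 peaked at day 3, WWTR1 climbed to a mean of 119 CPM at day 30, TEAD2 and TEAD4 sank, and the wells of ANKRD1 spread from 200 to 8222 CPM at day 30.

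YAP1, the main coactivator of the pathway, was abundant throughout and rose to a peak at day 3. Its wells stood at 140, 157 and 170 CPM in pluripotent cells and at 158, 162 and 171 CPM at day 0. They reached 264, 279 and 290 CPM at day 1 and 409, 421 and 423 CPM at day 3, with no overlap between these 3 days. YAP1 rose by 0.76 ± 0.11 (SE) from day 0 to day 1 (adjusted p = 1.5e-06) and by a further 0.59 ± 0.11 to day 3 (adjusted p = 4.9e-05). By day 5 it fell by 0.36 (SE 0.09, adjusted p = 0.0069), and by day 7 it fell by a further step (log2 change -0.31, SE 0.08, adjusted p = 0.016). The fall by day 5 brought the 5 wells to between 292 and 348 CPM, all below the 3 wells of day 3. That call was lost without the first or the third well of day 3, and the fall to day 7 was lost without day 5 well 1 or without day 7 well 10 or 4.

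From day 7 onward YAP1 stayed within a narrow band. The lowest of the 27 wells of days 7 to 90 held 205 CPM and the highest 301 CPM. At day 9 the wells held 212, 213, 213, 226 and 236 CPM, all above the wells of day 0, a rise of 0.43 ± 0.10 (adjusted p = 0.00039). On the log2(TPM + 1) scale that change was 0.01 and did not pass. At day 90 the wells held 250, 280 and 288 CPM, a rise of 0.31 ± 0.10 over day 9 (adjusted p = 0.0092) on the scaled counts that turned to -0.30 on the TPM scale, where the median of all genes was shifted by -0.48. That call was also lost without day 90 well 5. In the order of group means, YAP1 at day 3 was above day 5, day 5 above day 1 and day 9 above day 0 with no overlap, while the ranges of the other neighbours overlapped.

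WWTR1, which encodes TAZ, had a low start and a late climb. Its wells held 7.96, 8.60 and 9.19 CPM in pluripotent cells and 12.6, 14.2 and 16.8 CPM at day 0, a rise of 0.76 ± 0.18 (adjusted p = 0.012). Pluripotent cells and day 0 did not overlap, although the call was lost without pluripotent well 1 or day 0 well 1. At day 1 the wells held 19.7, 20.2 and 22.3 CPM, a rise of 0.51 ± 0.18 over day 0 (adjusted p = 0.038) that missed the threshold with the sequencing lane in the fit and without day 0 well 2 or 3 or day 1 well 2. WWTR1 then stood still until day 5, at 17.9 to 29.2 CPM over the 8 wells of days 3 and 5.

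The climb of WWTR1 resumed after the Wnt inhibitor. From day 5 to day 7 it rose by 0.52 ± 0.14 (adjusted p = 0.016), to wells at 28.2, 30.3, 35.0, 37.2 and 38.0 CPM, all above those of day 5. This call was lost without day 5 well 5 or day 7 well 2. At day 9 the wells held 36.8 to 48.0 CPM and at day 11 52.0 to 72.1 CPM, with no overlap. Day 30 was the highest group, with wells at 95.9, 127 and 134 CPM, a rise of 1.50 ± 0.16 over day 9 (adjusted p = 2.1e-09). The day 30 mean was 13.9 times that of pluripotent cells. At day 90 the wells held 75.8, 77.5 and 82.9 CPM, above day 9 by 0.90 ± 0.16 (adjusted p = 1.6e-05) and below day 30 by 0.60 (log2 change -0.60, SE 0.18, adjusted p = 0.031). The last call was lost with the lane in the fit, with only the compared groups in the fit, and in the fits without day 30 well 1 or 3 or any 1 of the day 90 wells. The rise from day 9 to day 90 did not pass on the log2(TPM + 1) scale. In TPM the wells of these 2 days overlapped, with 3.74 to 10.74 at day 9 and 5.43 to 9.14 at day 90.

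Within a library, WWTR1 moved up against YAP1. The TPM of WWTR1 was 0.0613 to 0.0762 of that of YAP1 in pluripotent wells and 0.143 to 0.256 at day 9. At day 30 the range was 0.384 to 0.528, and at day 90 it was 0.223 to 0.279. The log2 ratio at day 9 exceeded that at day 0 by 0.89 (-2.41 ± 0.33 SD against -3.30 ± 0.35), and the 2 groups did not overlap. A two-sided exact permutation test gave p = 0.0357, the smallest that 5 wells against 3 allow, and 0.0714 after adjustment for the 6 ratio comparisons made. From day 9 to day 90 the difference was 0.44, with exact p = 0.0714 and 0.107 after adjustment.

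Among the TEAD genes the makeup changed from mostly TEAD2 to a mixture of TEAD1, TEAD2 and TEAD3. In pluripotent wells TEAD2 supplied 60.3% to 64.4% of the summed TEAD TPM and TEAD1 5.77% to 7.49%. At day 90 TEAD2 supplied 17.3% to 31.4% and TEAD1 32.1% to 40.7%. TEAD3 went from 7.58% to 9.08% in pluripotent wells to 22.1% to 45.9% at day 20 and 23.6% to 28.3% at day 90. TEAD4 had 20.4% to 24.8% in pluripotent wells and 11.9% to 13.7% at day 90.

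**Figure D2:**
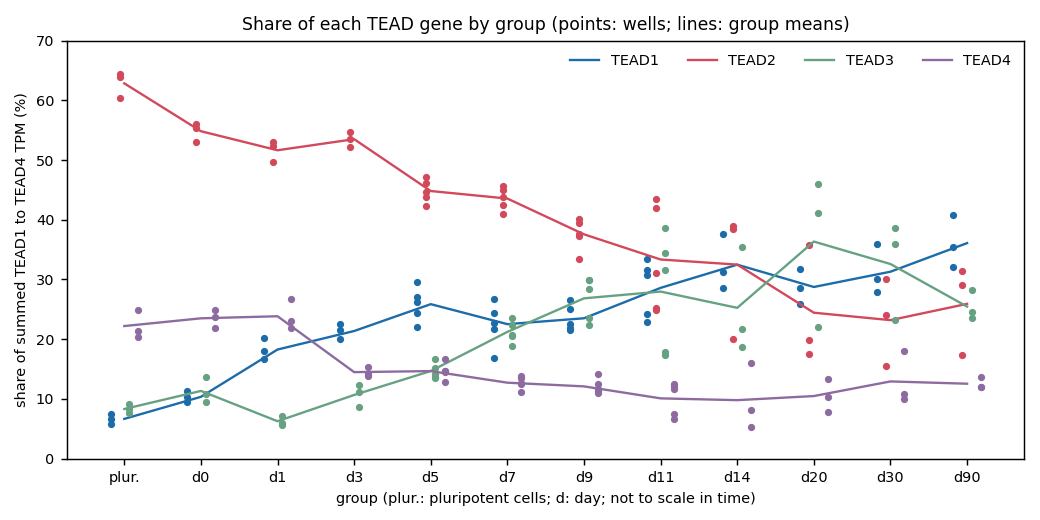
Share of the summed TPM of TEAD1 to TEAD4 held by each gene (vertical axis, %) in each well (points) by group (horizontal axis), with lines through group means. The mean share of TEAD2 went from 62.9% in pluripotent cells to 25.9% at day 90, and that of TEAD1 from 6.65% to 36.1%.

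TEAD1, the TEAD factor long known from muscle gene promoters, rose at the start and again late. Its wells held 55.3, 59.5 and 70.4 CPM at day 0 and 120, 138 and 139 CPM at day 1. This was a rise of 1.10 ± 0.19 (adjusted p = 2.8e-05) with no overlap. From day 1 to day 11 the wells lay between 112 and 204 CPM, and no step between neighbouring times up to day 9 passed after day 1. TEAD1 was above day 0 at day 9 by 1.18 ± 0.17 (adjusted p = 4.8e-07). It was above day 9 at day 30 by 0.56 ± 0.16 (adjusted p = 0.0077) and at day 90 by 0.66 ± 0.16 (adjusted p = 0.0012). The wells held 114 to 164 CPM at day 9, 168, 211 and 239 CPM at day 30, and 180, 207 and 276 CPM at day 90. Neither late group overlapped day 9 in CPM, but the day 30 call was lost without day 30 well 1. In TPM both overlapped it, with 7.15 to 19.15 at day 9, 14.25 to 20.95 at day 30 and 9.4 to 17.72 at day 90. The day 90 rise did not pass on the log2(TPM + 1) scale.

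TEAD2, the TEAD gene best known from early embryos, was lower late than early. The wells held 146, 151 and 154 CPM in pluripotent cells, 113, 116 and 120 CPM at day 0 and 63.9, 71.1, 75.4, 77.7 and 81.4 CPM at day 9. None of the steps from 1 time to the next passed in the fit over all libraries. With libraries up to day 9 alone it was called lower at day 0 (-0.36), day 5 (-0.24), day 7 (-0.25) and day 9 (-0.28) than at the time before. The fall from day 0 to day 9 was 0.65 (log2 change -0.65, SE 0.21, adjusted p = 0.011), with no overlap between the groups. That call was lost without day 0 well 2. By day 30 the wells held 29.3, 42.8 and 61.3 CPM, a further change of -0.73 ± 0.22 (adjusted p = 0.011), all below day 9. That call was lost without day 30 well 3. At day 90 the wells held 41.4, 56.8 and 64.1 CPM, and the change from day 9 of -0.45 did not pass.

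The 2 remaining TEAD genes moved in opposite directions. TEAD3 held 28.4, 30.2 and 34.5 CPM at day 0 and 47.8, 50.2, 63.6, 69.0 and 83.8 CPM at day 9, a rise of 1.02 ± 0.25 (adjusted p = 0.00072) without overlap. TEAD4, a factor needed for the first outer cell layer of the mouse embryo, held 34.6, 39.7 and 40.0 CPM at day 0 and 38.2, 43.2 and 47.8 CPM at day 1. Its wells then held 22.7, 26.6 and 31.1 CPM at day 3, a change of -0.68 ± 0.26 (adjusted p = 0.046) that was lost without day 1 well 1 or 3 or day 3 well 2 or 3. At day 9 TEAD4 held 13.7, 15.2, 16.4, 20.1 and 25.5 CPM, lower than day 0 by a log2 change of -1.07 ± 0.23 (adjusted p = 0.0002). Neither TEAD3 nor TEAD4 passed the test in a comparison after day 9.

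The TPM of TEAD2 was 8.53 to 10.5 times that of TEAD1 in pluripotent wells, 4.97 to 5.63 times at day 0, 1.48 to 1.75 times at day 9 and 0.425 to 0.978 times at day 90. The ratio sank in each of these groups without overlap. The log2 ratio differed by -1.73 between day 9 and day 0 (0.68 ± 0.11 SD against 2.41 ± 0.09). Between day 90 and day 9 it differed by -1.20 (-0.52 ± 0.63 SD at day 90). Each gave a two-sided exact permutation p = 0.0357, the smallest possible, and 0.0714 after adjustment for 6 comparisons.

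Of the kinases that restrain YAP and TAZ, LATS1 had the narrowest range of group means of the 10 genes, the highest being 1.90 times the lowest. It held 16.9 to 62.4 CPM over all 44 wells, with group means between 23.4 and 44.5 CPM, and no neighbours in the order of its means were free of overlap. LATS1 passed the test in none of the 10 comparisons, with an unadjusted p under 0.05 in none. From day 0 to day 9 its change was 0.23, with an approximate 95% interval from -0.23 to 0.69.

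LATS2, itself a common YAP target, spread more between wells than LATS1 at days 20 and 30, though not at days 14 and 90. Its wells held 26.5, 29.8 and 31.6 CPM at day 0 and 16.0, 20.1 and 20.8 CPM at day 1, with no overlap. The change of -0.63 ± 0.31 did not pass in the fit over all libraries (adjusted p = 0.15). In a fit of the libraries up to day 9 alone it was -0.61 ± 0.14 (adjusted p = 0.00074). At day 30 the wells held 28.9, 40.2 and 118 CPM against 28.1 to 44.2 CPM at day 9, and the test called a rise of 0.81 ± 0.27 (adjusted p = 0.02). That call rested on day 30 well 3: without it the change was -0.05. At day 90 the 3 wells held 49.9, 50.4 and 50.7 CPM, all above the 5 wells of day 9, with a change of 0.50 ± 0.27 that did not pass (adjusted p = 0.15). The TPM ratio of LATS2 to LATS1 was 1.01 to 1.40 at day 0, 1.07 to 2.17 at day 9 and 1.88 to 2.36 at day 90. Its log2 differences of 0.15 and 0.67 gave exact permutation p values of 0.714 and 0.107 (0.714 and 0.129 after adjustment), and without day 9 well 10 the first was -0.03.

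AMOTL2, the restraining motin and YAP target, had the largest change of the 10 genes from day 0 to day 1. Its wells held 31.3, 32.8 and 36.6 CPM at day 0 and 151, 196 and 229 CPM at day 1. The rise was 2.51 ± 0.37 (adjusted p = 3.5e-06), which is 5.72-fold. Wells of days 3 to 9 held between 116 and 216 CPM. The change from day 1 to day 3 passed with libraries up to day 9 alone (-0.51 ± 0.18, adjusted p = 0.025) and not in the fit over all libraries. At day 9 AMOTL2 was above day 0 by 2.33 ± 0.35 (adjusted p = 8.4e-07). At day 90 it held 72.3, 86.1 and 98.2 CPM, all below the 116 to 216 CPM of day 9. The change was -0.98 ± 0.33 (adjusted p = 0.016) and missed the threshold without day 90 well 5.

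ANKRD1 rose over the widest range. Its wells held 2.04, 3.18 and 3.46 CPM in pluripotent cells and 12.1, 15.0 and 15.5 CPM at day 0. They dipped to 2.12, 6.37 and 7.50 CPM at day 1 and then climbed to 21.0, 32.0 and 35.8 CPM at day 3 and to 42.8, 77.3, 111, 118 and 142 CPM at day 5. None of these groups overlapped its neighbour in time, yet no step passed in the fit over all libraries. With libraries up to day 9 alone, ANKRD1 was called higher at day 0 (2.31 ± 0.65, adjusted p = 0.011), day 3 (2.45 ± 0.62, adjusted p = 0.0018) and day 5 (1.76 ± 0.54, adjusted p = 0.012) than at the time before.

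The largest single step of ANKRD1 came between day 5 and day 7, to 410, 427, 547, 739 and 1199 CPM. The change of 2.76 ± 0.85 passed narrowly (adjusted p = 0.044) and was lost in all 10 fits that left out 1 well of these days, with values from 2.44 to 2.93. With libraries up to day 9 alone it was 2.74 ± 0.46 (adjusted p = 9.5e-05). At day 9 the wells held 255, 673, 1280, 1517 and 3046 CPM, above day 0 by 6.58 ± 1.29 (adjusted p = 5.7e-05). After day 9 the wells of a day differed more than the days: 160, 1331 and 2237 CPM at day 20, 200, 1322 and 8222 CPM at day 30, and 175, 1246 and 1310 CPM at day 90. No comparison after day 9 passed.

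**Figure D3:**
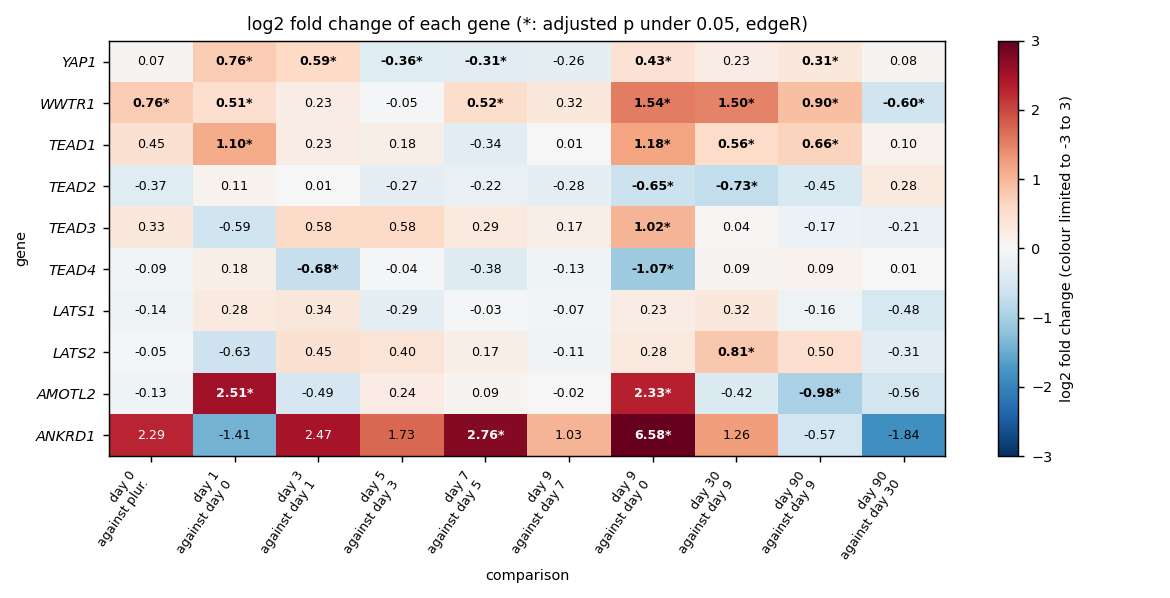
log2 fold change (colour and printed value) of the 10 genes (rows) in the 10 comparisons (columns), with an asterisk where the adjusted p was under 0.05. ANKRD1 changed most from day 0 to day 9 (6.58) and LATS1 passed in no comparison. The YAP1 value of day 90 against day 9 turns to -0.30 on the TPM scale, where the WWTR1 and TEAD1 values are 0.10 and 0.12 and miss the threshold, and the LATS2 value of day 30 against day 9 turns to -0.05 without day 30 well 3.

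Counted by comparison, the number of the 10 genes called was largest, 8, over the whole course to day 9. From pluripotent cells to day 0, WWTR1 alone of the 10 rose and none fell, beside 3.45% of all genes tested that rose and 2.43% that fell. From day 0 to day 1, 4 rose (YAP1, WWTR1, TEAD1 and AMOTL2) and none fell, beside 9.78% and 12.3% of all genes. The median change of the 10 was 0.23 against -0.03 over all genes. From day 1 to day 3, YAP1 rose and TEAD4 fell, beside 15.7% and 12.9%. From day 3 to day 5 none rose and YAP1 fell, beside 8.16% and 9.35%. From day 5 to day 7, WWTR1 and ANKRD1 rose and YAP1 fell, beside 4.16% and 1.73%.

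From day 7 to day 9 edgeR called none of the 10, beside 1.42% of all genes higher and 0.549% lower. YAP1 and WWTR1 had an unadjusted p under 0.05 in that comparison, and DESeq2 called 0 too. Over the whole course from day 0 to day 9, 6 rose (YAP1, WWTR1, TEAD1, TEAD3, AMOTL2 and ANKRD1) and 2 fell (TEAD2 and TEAD4), beside 24.1% and 23.5% of all genes. Here the median change of the 10 was 0.72 against 0.08 over all genes. From day 9 to day 30, WWTR1, TEAD1 and LATS2 rose and TEAD2 fell, beside 16.6% and 15.3%. From day 9 to day 90, YAP1, WWTR1 and TEAD1 rose and AMOTL2 fell, beside 18.7% and 19.7%. On the log2(TPM + 1) scale none of these 3 rises passed, with changes of -0.30, 0.10 and 0.12. From day 30 to day 90 none rose and WWTR1 fell, beside 4.03% and 4.49%.

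The counts of the early comparisons differed with the libraries in the fit. The late wells vary more and share the fit over all libraries, and the part of this in the counts was not tested. With libraries up to day 9 alone, an alternative chosen after seeing the data, 4 genes passed in the step to day 0, 6 in that to day 1, 6 by day 3, 5 by day 5, 6 by day 7 and 2 by day 9. This fit added TEAD1 (0.47) and ANKRD1 higher and TEAD2 (-0.36) lower at day 0. At day 1 it added TEAD3 (-0.57) and LATS2 lower, and both were higher again at day 3 (0.56 and 0.43) and at day 5 (0.61 and 0.43). YAP1 (-0.25) and TEAD2 (-0.28) fell from day 7 to day 9 in this fit.

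Upstream parts and cofactors of the pathway, a list of 31 further genes of which all were tested, moved in both directions. From day 0 to day 1, 5 rose and 1 fell, beside 9.78% and 12.3% of all genes. These included AMOTL1 (2.58 ± 0.34, adjusted p = 3.9e-07), which encodes another motin, VGLL4 (1.27 ± 0.17), which competes with YAP for TEAD, and PTPN14 (0.92 ± 0.26), a phosphatase that binds YAP. AMOTL1 held 42.1, 45.0 and 45.7 CPM at day 0 and 249, 271 and 277 CPM at day 1, a step like that of AMOTL2. From day 1 to day 3, 5 rose and 7 fell (15.7% and 12.9% of all genes), with AMOT, the founding motin, higher by 2.33 ± 0.34. The atypical cadherin genes DCHS1 (1.67 ± 0.32) and FAT4 (1.40 ± 0.47), a ligand and receptor pair, rose in the same step.

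From day 3 to day 5, 2 of the 31 rose, AMOT (1.31 ± 0.30) and AJUBA (0.90 ± 0.32), which encodes a LIM protein that binds LATS, and 2 fell, among them SAV1 (-0.73 ± 0.12), the scaffold of the upstream kinases. Of all genes, 8.16% rose and 9.35% fell in that step. None passed between days 5 and 7 or between days 7 and 9, where 2 and 0 had an unadjusted p under 0.05. From day 0 to day 9, 11 rose and 7 fell (24.1% and 23.5% of all genes), with AMOT higher by 3.35 ± 0.34 and VGLL3, another TEAD cofactor, lower by a log2 change of -2.87 ± 0.62. The median of the list was -0.05 in that comparison against 0.08 over all genes.

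After day 9 the motins fell while VGLL3 returned. AMOT held 85.6 to 136 CPM at day 9 and 13.5, 25.9 and 33.4 CPM at day 90, a change of -2.14 ± 0.32 (adjusted p = 1.1e-06), and AMOTL1 changed by -0.97 ± 0.30. VGLL3 held 0.341 to 2.44 CPM at day 9 and 12.7, 26.8 and 60.1 CPM at day 90, a change of 4.59 ± 0.64 (adjusted p = 3.2e-07). Of the 31 genes, 6 rose and 4 fell between days 9 and 30, and 6 rose and 7 fell between days 9 and 90. These counts are near the shares of all genes, 16.6% and 15.3% to day 30 and 18.7% and 19.7% to day 90. From day 30 to day 90 none rose and 3 fell: WWC1 (-1.34 ± 0.36), the upstream activator also called KIBRA, MOB1B (-0.78 ± 0.25), a LATS partner, and STK4 (-0.65 ± 0.15), an upstream kinase, beside 4.03% and 4.49% of all genes. STK3, the sister kinase, was the 1 gene of the list called from pluripotent cells to day 0 (-0.49 ± 0.15).

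Commonly used YAP and TAZ target genes, a list of 21 genes outside the 10, were called lower more often than higher at day 1 and higher more often at days 3, 5 and 7. From pluripotent cells to day 0, 2 rose and none fell, beside 3.45% and 2.43% of all genes. From day 0 to day 1, 1 rose and 5 fell (9.78% and 12.3% of all genes), among them MYOF (-2.14 ± 0.40), a membrane repair gene, and AXL (-1.31 ± 0.23), a receptor kinase gene. From day 1 to day 3, 7 rose and 1 fell (15.7% and 12.9%), with MYOF higher by 4.98 ± 0.43. From day 3 to day 5, 6 rose and 1 fell (8.16% and 9.35%), led by IGFBP3 (5.40 ± 0.57) and TGFB2 (5.08 ± 0.39). IGFBP3 encodes a secreted protein that binds growth factors, and TGFB2 a secreted growth factor. From day 5 to day 7, 3 rose and 1 fell, beside 4.16% and 1.73% of all genes. From day 7 to day 9 none passed and 4 had an unadjusted p under 0.05.

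From day 0 to day 9, 14 of the 21 targets rose and 2 fell, beside 24.1% and 23.5% of all genes, with a median of 1.48 against 0.08 over all genes. After day 9 the balance turned: 5 rose and 7 fell to day 30 (16.6% and 15.3% of all genes), 2 rose and 7 fell to day 90 (18.7% and 19.7%), and none rose and 3 fell from day 30 to day 90 (4.03% and 4.49%). FOXF2, a forkhead factor gene of mesenchyme, changed by 5.61 ± 0.79 to day 9 and by -4.92 ± 0.79 from day 9 to day 90. TGFB2 changed by -2.33 ± 0.33 from day 9 to day 90. CTGF and CYR61, also on the list, were not called from day 0 to day 9. CTGF was called in no comparison, and CYR61 only from day 9 to day 90, with a change of -1.92 ± 0.63 (adjusted p = 0.014). These lists overlap with genes of mesoderm and of connective tissue, and the sum of 4 fibroblast and mesenchymal markers went from 133 to 150 CPM at day 0 to 1609 to 4484 CPM at day 9 and to 2143 to 12530 CPM at day 90. The part of these cells in the counts was not tested.

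From day 9 onward ANKRD1 and some of the other genes differed between wells of the same day, in part together. The 5 wells labelled day 11 form 2 sets that stand apart, and the series' design text speaks of 3 wells. Their counts differed by a chi-square per gene of 20.8 between wells 1 and 2 and of 11.9 to 20.4 among wells 5, 6 and 7, against 136 to 199 between the sets. RNA integrity numbers were 8.6 and 8.0 in wells 1 and 2 and 9.2 to 9.5 in the others, and total counts were 18014203 and 19060126 against 23631168 to 31323325. The part of these in the values was not tested. The sequencing batch of the wells was not compared with the sets. Wells of other days stood apart by the same chi-square too. At day 9 it was 41.5 between wells 3 and 4 and 105.1 to 230.5 between these and wells 1, 2 and 10. At day 90 it was 32.0 between wells 2 and 5, and 248 and 191 between these and well 4.

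At day 11, wells 1 and 2 held 91.1 and 64.4 CPM of ANKRD1, and wells 5, 6 and 7 held 1350, 1098 and 588 CPM. AMOTL2 in the same order held 69.0, 73.1, 187, 156 and 146 CPM. TEAD3 held 31.8, 31.5, 82.7, 67.5 and 73.8 CPM. TEAD4 and LATS2 showed the same split: wells 1 and 2 held 9.02 and 9.64 CPM of TEAD4 against 16.6 to 18.3 CPM in the others, and 21.8 and 23.0 CPM of LATS2 against 30.9 to 34.4 CPM.

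In the same wells TEAD2 went the other way, with 74.4 and 74.0 CPM in wells 1 and 2 and 46.9 to 60.0 CPM in wells 5, 6 and 7. YAP1 was higher in wells 1 and 2 too, by less, with 244 and 238 CPM against 205 to 231 CPM. Of the targets outside the 10 genes, 2 named after their values were seen were lower in wells 1 and 2. CTGF, the gene of connective tissue growth factor, held 15.7 and 14.8 CPM in wells 1 and 2 against 69.6 to 125 CPM in the others. CYR61, a related matrix protein gene, held 13.9 and 13.4 CPM against 34.5 to 67.3 CPM. IGFBP3, another target, went the other way, with 429 and 645 CPM against 155 to 171 CPM, and the wells overlapped in MYOF.

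At day 14, well 6 held 1284 CPM of ANKRD1 against 57.1 and 63.8 CPM in wells 2 and 3, and was highest in AMOTL2 (220 against 57.7 and 84.0 CPM), LATS2 (45.4 against 22.5 and 27.6 CPM), CTGF (273 against 22.5 and 23.6 CPM) and CYR61 (175 against 17.2 and 21.2 CPM). At day 20, wells 1 and 2 held more ANKRD1, LATS2 and CTGF than well 3, with LATS2 at 73.6 and 60.1 against 25.8 CPM and CTGF at 370 and 336 against 36.0 CPM. At day 30, well 3 had the highest ANKRD1 of all 44 wells together with the highest LATS2, 118 CPM, and the highest CTGF, 630 CPM. The other 2 wells of that day did not follow this order: well 10 held more ANKRD1 than well 1 (1322 against 200 CPM) and less AMOTL2 (63.5 against 104 CPM) and LATS2 (28.9 against 40.2 CPM). At day 90, well 4 held 175 CPM of ANKRD1 against 1310 and 1246 CPM in wells 2 and 5. Its LATS2 was level with theirs (50.4 against 50.7 and 49.9 CPM), its AMOTL2 lay between theirs, and its TEAD3 (64.0 against 50.9 and 52.8 CPM) and TEAD4 (23.5 against 18.2 and 16.7 CPM) were higher. Of the targets outside the 10 genes, only CTGF, chosen after its values were seen, is given for days 20 and 30. None is given for day 90, so these wells do not show how the target list as a whole moved.

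**Figure D4:**
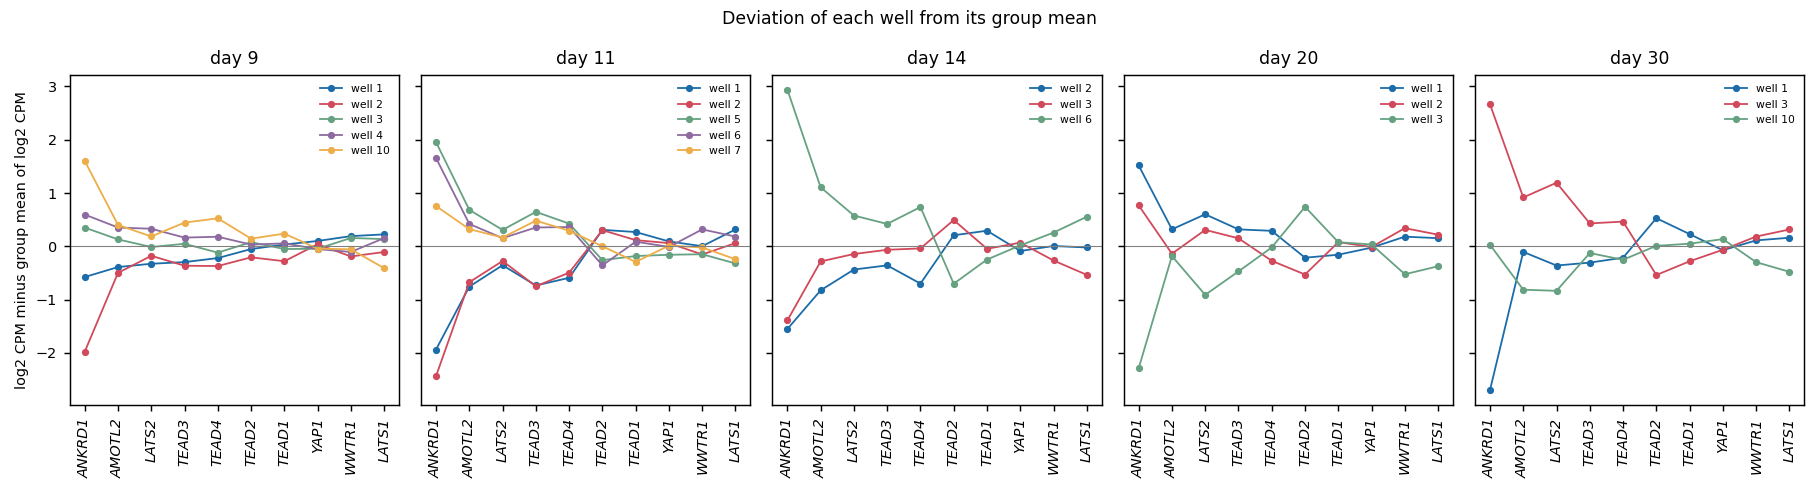
Deviation of the log2 CPM of each well from the mean log2 CPM of its group (vertical axis) for the 10 genes (horizontal axis) at days 9, 11, 14, 20 and 30 (panels), 1 line per well. Lines that are high for ANKRD1 are mostly high for AMOTL2 and LATS2 too, as in day 11 wells 5, 6 and 7, whereas YAP1 stays near 0 in all panels.

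Over all 12 groups, the well with the most ANKRD1 was also the well with the most AMOTL2 in 10, the most TEAD3 in 9, the most LATS2 in 9 and the most TEAD4 in 8. The same count was 6 for TEAD2, 5 for WWTR1, 3 for TEAD1, and 2 each for YAP1 and LATS1. The well with the least ANKRD1 was also lowest in AMOTL2 in 6 groups, in TEAD3 and TEAD2 in 7 each, in TEAD4 in 5, in LATS2 and YAP1 in 4 each, and in WWTR1, TEAD1 and LATS1 in 3 each. Groups hold 3 or 5 wells, and genes measured in 1 library share its depth and cell makeup. The counts are given as a description.

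Markers of other cells moved with some of these splits and not with others. The sum of 4 endoderm markers, of which AFP gave most, was 4117 and 7777 CPM in day 11 wells 1 and 2 and 120 to 138 CPM in wells 5, 6 and 7, and all 4 markers were above 0 in each well. The sum of 2 proliferation markers was 389 and 467 CPM in wells 1 and 2 against 107 to 132 CPM. The sum of 5 cardiomyocyte markers was 7174 and 4660 CPM against 17460 to 18920 CPM. At day 14 the endoderm sum was 3543 and 3466 CPM in the wells low in ANKRD1 and 2244 CPM in well 6. The proliferation sum there was 333 and 346 CPM against 108 CPM, and the cardiomyocyte sum 7413 and 10200 CPM against 10690 CPM. At day 20 the endoderm sum was 3589 CPM in well 3 and 876 and 1624 CPM in wells 2 and 1. The proliferation sum there was 576 CPM in well 3 against 99.6 and 91.2 CPM. The cardiomyocyte sum was highest in well 3, unlike at day 11, with 14540 CPM against 10350 and 10290 CPM. Not all 5 genes followed that sum: ACTN2 was lowest in well 3, with 639.9 CPM against 707.3 and 670.4 CPM in wells 2 and 1.

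At day 30 the order was different. Well 3 had the most ANKRD1 and the largest endoderm sum, 242 CPM against 15.3 and 29.7 CPM. The sum of 2 smooth muscle markers was also largest there, 1205 CPM against 258 and 678 CPM in wells 10 and 1. CNN1 gave most of that sum, with 1189 CPM against 245.4 and 561.5 CPM. The other gene, MYH11, was highest in well 1. At day 90, well 4 had the least ANKRD1 and the most cardiomyocyte markers, 50490 CPM against 14870 and 19320 CPM, and the fewest fibroblast and mesenchymal markers, 2143 CPM against 12530 and 6376 CPM. Day 14 well 2, day 20 well 2 and day 30 well 10 had the lowest depth of their groups and mitochondrial shares of 3.23%, 4.57% and 4.56%. The part of cell makeup, depth and RNA quality in the differences between wells was not tested.

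Outside the pathway, the genes whose 12 group means were most like those of each of the 10 were found among 10377 protein-coding genes, as Pearson's r of log2 CPM over 12 group means, a description in which the points share libraries. YAP1 was most like ROR2 (0.96), the gene of a Wnt receptor. WWTR1 was most like BMPR2 (0.98), the gene of a BMP receptor, and TEAD1 was most like YAF2 (0.97), a Polycomb partner gene. TEAD2 was most like TRIM59, AURKB and MAD2L1 (0.99 each), the latter 2 being mitosis genes. TEAD3 was most like LMOD1 (0.97), an actin filament gene of smooth muscle, TEAD4 like GFOD2 (0.98) and LATS1 like RPRD2 (0.95). LATS2 was most like COL11A2 (0.93), a collagen gene, and AMOTL2 like KCTD15 (0.96). ANKRD1 was most like SH3PXD2A (0.98), a scaffold of invasive cell protrusions, which was also among the 3 genes most like TEAD3 (0.97).

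Some of the counts have a limit from neighbouring genes. TEAD3, TEAD4 and ANKRD1 overlap no other annotated gene, while the other 7 overlap at least 1, and TEAD2 overlaps the protein-coding genes CD37 and DKKL1 on the opposite strand. The library kit keeps the strand. Whether the counting used it is not given in the sources used here.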

How the data were processed

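Libraries were made with a stranded total RNA kit and sequenced as paired reads, per the labels' protocols. Per the submitters' processing notes, cutadapt, STAR 2.5.2b and RSEM 1.2.31 were used with hg38. The authors deposited a table of RSEM estimated counts and a table of TPM for 60499 gene identifiers, and a sample sheet with the RNA integrity score and the sequencing lane. That sheet also lists a sequencing batch, which was not a term in the fits reported here. The part of the batch in the values was not tested. Column names matched the sample titles. Gene symbols came from GENCODE 29. Here, estimated counts were rounded (93.8% were whole already), filtered with filterByExpr, scaled by TMM and fitted with edgeR 4.0.16 (R 4.3.3), with 1 mean per group over all 44 libraries. p-values were adjusted by Benjamini-Hochberg over 22955 genes. CPM are these counts divided by the scaled library size. Ratios of 2 genes used TPM in each library, with exact permutation tests in scipy 1.17.1. Depth was 6937136 to 33498022 counts per library, and RNA integrity scores were 7.4 to 10. The fit was tested on simulated counts in which each gene had the same spread in all groups. Because the spread between wells differed between groups here, that test cannot show how unequal spread acts on the calls.

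All 10 genes are named in every group. Per comparison up to 3 called genes of each pathway list with the largest change, and for each gene the 3 most similar genes with a TPM of at least 5 in a group, could be named. Members of lists named beside the differences between wells (CTGF, CYR61 and AMOTL1) were chosen after their values were seen. The genes and lists were chosen with earlier results of these data known. Alternatives were no filter, another scaling (RLE), DESeq2 1.42.0, limma 3.58.1 on log2(TPM + 1) and log2(TPM + 0.1), the compared groups alone, lane or replicate number in the fit, a limit of 1 on the log2 fold change, and leaving out each well. Fits without the late libraries, and without 3 shallow ones, were added after seeing the data.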

Additional observations from a re-analysis of the deposited data

Results flagged for a closer look

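In 40 checks of a gene within a day of 5 wells, 3 had a lowest well whose gap to the next was large for the range of its group, where chance gives about 1 in 20. All 3 were at day 5. WWTR1 held 17.9 CPM in well 5 against 23.7 to 26.1 CPM in the others. TEAD4 held 21.1 CPM in well 4 against 26.7 to 28.7 CPM, and AMOTL2 held 148 CPM in well 4 against 163 to 166 CPM.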

How the results depend on the processing

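Numbers of the 10 genes called moved most with the libraries in the fit and with the scale. With the compared groups alone, 5 genes were called in the step to day 0 (1 in the fit over all libraries), 7 in that to day 1 (4), 6 to day 3 (2), 5 to day 5 (1), 6 to day 7 (3) and 0 between days 30 and 90 (1). The libraries up to day 9 gave 4 in the step to day 0, 6 to day 3, 5 to day 5, 6 to day 7 and 2 to day 9 (0). On log2(TPM + 1) with limma the steps to days 0, 1, 3, 5 and 7 gave 0, 1, 0, 0 and 0. The same scale gave 4 between days 0 and 9 (8), 1 between days 9 and 30 (4), 2 between days 9 and 90 (4) and 3 between days 30 and 90. A pseudocount of 0.1 gave these same counts except 4 for the last. TPM moved the median of all genes by up to -0.65 (between days 30 and 90), and YAP1 at day 90 against day 9 reversed to -0.30 and -0.31. On log2(TPM + 1), 19 of the 28 called changes kept direction but not the call, 1 reversed and 8 kept both. With a fold limit the steps to days 0, 1, 3, 5 and 7 gave 0, 2, 0, 0 and 1, days 9 to 30 gave 1, and days 9 to 90 and 30 to 90 gave 0 each. With no filter, day 3 gave 1, day 5 gave 0, day 7 gave 1, and days 30 to 90 gave 0, as with lane as a term. Apart from what the smaller sets of libraries and genes fix by construction, the cause was not tested. RLE scaling, DESeq2 and leaving out the 3 shallow libraries kept each count within 1.5 times.

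Leaving out 1 well gave 0 to 1 genes in the step to day 0, 1 to 2 to day 3, 0 to 1 to day 5, 1 to 2 to day 7, 2 to 4 between days 9 and 90 and 0 to 1 between days 30 and 90. LATS2 at day 30 against day 9 reversed to -0.0503 without day 30 well 3, in a range up to 1.12. The LATS2 to LATS1 ratio at day 9 against day 0 ranged from -0.0334 to 0.27. Of 513 alternative values for the 28 called changes, 423 kept direction and call, 87 kept direction only and 3 reversed. Whether wells with the same number are paired was left undecided. In no comparison with 3 or more shared numbers did every pair of deviations correlate above 0.1. Between days 7 and 9, though, 4 of 5 pairs did, with r from 0.09 to 0.62 and a mean of 0.32. Between days 5 and 7, 3 of 4 pairs did, with a mean of 0.17. Day 90 against day 9 had 2 of 2 pairs above 0.1, at 0.14 and 0.18. In each comparison with 3 shared numbers at most 1 pair did. With the replicate number as a block, 9 genes were called at day 9 against day 0 (8) and the other counts were as in the fit without it. Depth differed most from day 14 on, where the lowest library held 6937136 counts.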
